A study of Equus caballus with 9 samples.

Results

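The 55 genes described here stood higher in horse stromal cells taken towards adipocytes than in undifferentiated cells or cells taken towards chondrocytes. They were chosen from 13571 genes tested, out of 30371 gene IDs in the count files. A gene was taken when its lowest level over the 3 adipogenic libraries was at least 5 CPM (reads of a gene per 1e6 reads in genes, after scaling between libraries). That lowest level also had to be at least 2 times the highest level of the 6 other libraries, and the ranges of the undifferentiated and chondrogenic libraries had to overlap. The choice used the values of all 9 libraries, so the differences between groups given below describe the chosen genes and are not tests of them.

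The libraries came from cultured mesenchymal stromal cells (MSCs) of horse bone marrow, which adhere and divide in culture and can be turned into several connective tissue lineages. One group was left undifferentiated (MSC), one was differentiated towards adipocytes (ADM) and one towards chondrocytes (CDM), with 3 libraries each. All 3 groups share the same tissue of origin, and the labels give no breed, age, donor, medium or time for any of them. The labels do not say whether the libraries of a group are separate cultures or animals, and the spread behind every p-value below may therefore be only technical.

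In culture, adipogenic media drive stromal cells to stop dividing, switch on lipid-handling and insulin-response genes under the factors PPARG and the C/EBP family, and fill with lipid droplets. Chondrogenic media act through SOX9 and lead to a matrix of cartilage collagens and proteoglycans. The files do not pair IDs with names, and 0 of the 30371 IDs matched the gene table used here. The members therefore have no names here, their roles and positions are not given, and the adipocyte and chondrocyte labels were not checked against marker genes. Members are called by their rank in the separation ratio, which is the lowest ADM level divided by the highest MSC or CDM level.

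Gene counts ranged from 17260899 to 39331930 per library. CDM replicate 2 stood apart from the rest, with the lowest total and a scaling factor of 0.525 against 0.904 to 1.41 in the other libraries. The number of genes meeting the rule, the order of the MSC and CDM means of single members and the spread between libraries are given below with and without it.

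**Figure D1:**
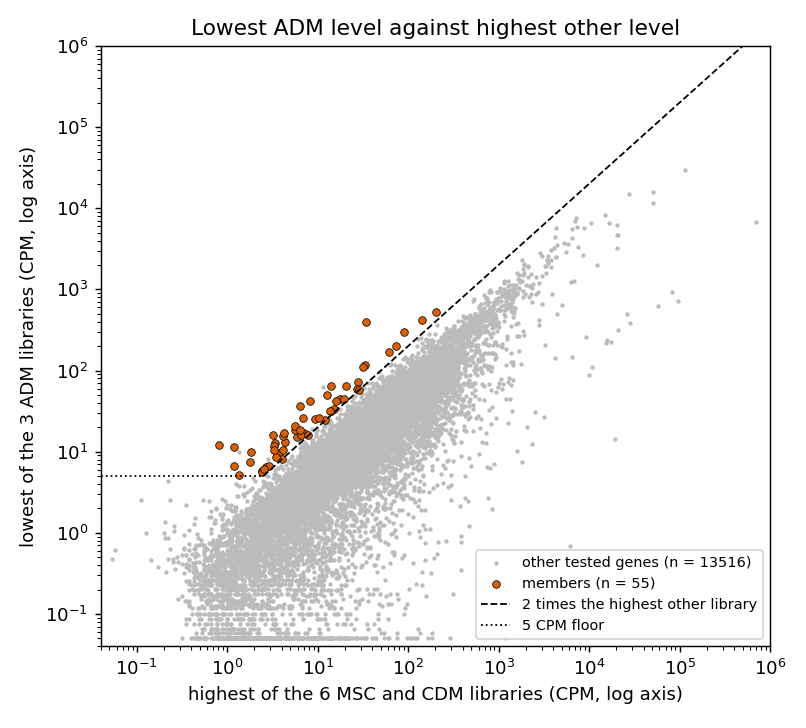
Each point is 1 of the 13571 tested genes, with the highest of the 6 MSC and CDM libraries on the horizontal axis and the lowest of the 3 ADM libraries on the vertical axis, both in CPM on log axes, with values under 0.05 drawn at 0.05. The 55 members (orange) lie above the lines for 5 CPM and for 2 times the highest other library, and most of them lie close to the second line, with a median ratio of 2.72.

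As a group, the members took up a small part of the transcriptome. Their reads made up 0.548%, 0.405% and 0.437% of gene counts in ADM replicates 1, 2 and 3. The shares were 0.0840%, 0.0613% and 0.0471% in the MSC replicates and 0.0725%, 0.0215% and 0.0779% in the CDM replicates. Every ADM library was above every other library, while the MSC and CDM libraries overlapped. The choice of genes largely sets both in advance. The ADM share averaged 0.463% ± 0.0748, the MSC share 0.0641% ± 0.0186 and the CDM share 0.0573% ± 0.0311 (SD, n = 3 each). Counting error is small beside this spread: the Wilson 95% interval ran from 0.545% to 0.550% in ADM replicate 1 and from 0.0209% to 0.0222% in CDM replicate 2, and covers counting error only. These shares were not scaled between libraries. After scaling, the summed level of the members averaged 4492 ± 816 CPM in ADM, 531 ± 106 in MSC and 635 ± 202 in CDM (SD, n = 3 each). The order of the MSC and CDM means was thus reversed by scaling. The unscaled order rested on CDM replicate 2, which had the lowest share and the lowest scaling factor, 0.525. CDM replicates 1 and 3 were above the MSC mean before scaling as well. In bulk RNA, more cells with a high level and a higher level in every cell cannot be told apart.

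The typical member was moderately expressed in ADM. The median over the 55 members was 35.9, 27.0 and 25.9 CPM in ADM replicates 1, 2 and 3, against 1.91 to 3.61 CPM in the MSC libraries and 2.32 to 4.21 CPM in the CDM libraries. Over all tested genes the library medians were alike, from 13.3 to 15.1 CPM. The median fold of group means over the members was 9.06 for ADM over MSC and 7.19 for ADM over CDM, against 0.976 and 0.951 over all tested genes. Mean ADM levels ran from 6.66 to 598 CPM. They were under 20 CPM in 19 members, from 20 to under 100 CPM in 27 and at least 100 CPM in 9. The lowest raw count of a member in any ADM library was 195 reads.

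Few members were silent outside ADM. The highest of the 6 MSC and CDM libraries was under 1 CPM in 1 member, from 1 to under 5 CPM in 21, from 5 to under 20 CPM in 21 and at least 20 CPM in 12. Most members thus reached at least 1 CPM in at least 1 library outside ADM. In each MSC or CDM library, however, 5 to 19 members were under 1 CPM. A count of 0 occurred in 5 of the member values: 1 in MSC replicate 2, 1 in MSC replicate 3 and 3 in CDM replicate 2. With 3 counts as the limit that a 0 allows, these values could lie as high as 0.0796 CPM in MSC replicate 2, 0.0866 CPM in MSC replicate 3 and 0.331 CPM in CDM replicate 2.

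**Figure D2:**
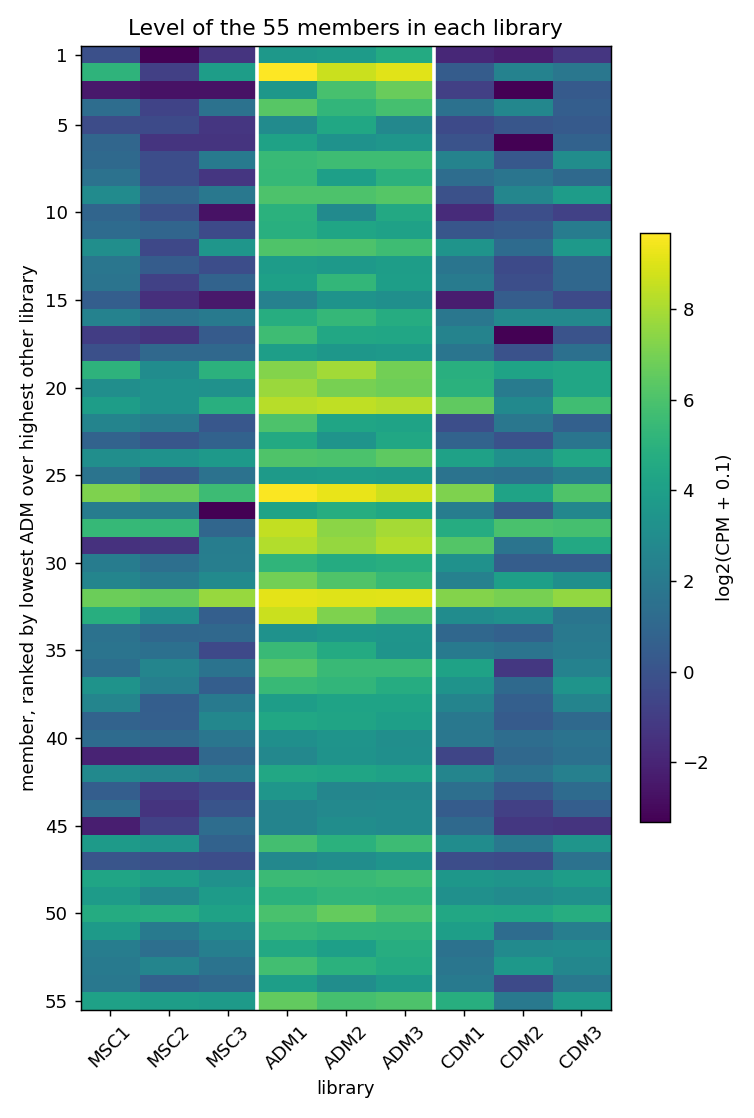
Rows are the 55 members ranked by the separation ratio, columns are the 9 libraries, and colour is log2(CPM + 0.1). The ADM columns are brighter than the other columns in every row, as the choice of genes requires. The MSC and CDM columns differ among themselves, with CDM replicate 2 lowest of the 6 in 17 rows (30.9%) and MSC replicate 2 in another 17 (30.9%). Among the 9082 genes with at least 5 CPM in every ADM library, these shares were 39.1% and 14.2%.

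The clearest separation was in ENSECAG00000018633, ranked 1, which was near the limit of detection outside ADM. Its level was 12.2, 14.1 and 24.2 CPM in ADM replicates 1, 2 and 3. It was at 0.809, 0 and 0.289 CPM in the MSC replicates and at 0.173, 0.110 and 0.317 CPM in the CDM replicates. These are 483 to 735 reads per ADM library against 0 to 28 per MSC library and 1 to 10 per CDM library. The lowest ADM library was 15.1 times the highest other library, MSC replicate 1. The log2 difference was 5.52 (SE 1.12) from MSC and 6.27 (SE 1.19) from CDM, with edgeR quasi-likelihood adjusted p of 0.107 and 0.142.

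The next members by ratio differed in how they behaved outside ADM. The member ranked 2 was at 814, 395 and 548 CPM in the ADM replicates and was among the most abundant of the group. In MSC it spread widely, at 34.5, 0.451 and 14.9 CPM, and in CDM it was at 1.28, 5.30 and 3.51 CPM. Its mean was 35.2 times the MSC mean and 174 times the CDM mean. It was the only member whose MSC mean was at least 2 times its CDM mean, although MSC replicate 2 lay below all 3 CDM libraries. The member ranked 3 was at 11.5, 59.6 and 105 CPM in ADM, at 0.0867, 0.0530 and 0.0577 CPM in MSC and at 0.450, 0 and 1.20 CPM in CDM. Its ADM libraries differed from each other by 9.11 times, the widest ADM spread of the 55. The 892-fold difference between its ADM and MSC means rests on 2 or 3 reads in each MSC library. From the summed reads of each group the fold was 834, with an exact 95% interval of 404 to 2075 that covers counting error only.

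The abundant members ranged from graded levels to a low level in 1 of the other groups, as in the member ranked 2 with a CDM mean of 3.37 CPM. ENSECAG00000010004 had the highest mean in ADM and ranked 26 by ratio. It was at 773, 606 and 416 CPM in ADM replicates 1, 2 and 3, at 141, 104 and 47.9 CPM in MSC and at 141, 18.2 and 68.7 CPM in CDM. The MSC and CDM ranges overlapped and all ADM libraries lay above both. The means were 598 ± 179 CPM for ADM, 97.6 ± 47.0 for MSC and 76.1 ± 61.9 for CDM (SD, n = 3 each). The log2 difference was 2.62 (SE 0.71) from MSC and 2.97 (SE 0.72) from CDM, with edgeR adjusted p of 0.218 and 0.179. The member ranked 32 was the most even of the abundant ones. It was at 572, 531 and 545 CPM in ADM, at 108, 95.5 and 201 CPM in MSC and at 152, 129 and 189 CPM in CDM, a fold of means of 4.07 over MSC and 3.51 over CDM. Its ADM libraries differed by only 1.08 times, the narrowest ADM spread among the members.

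**Figure D3:**
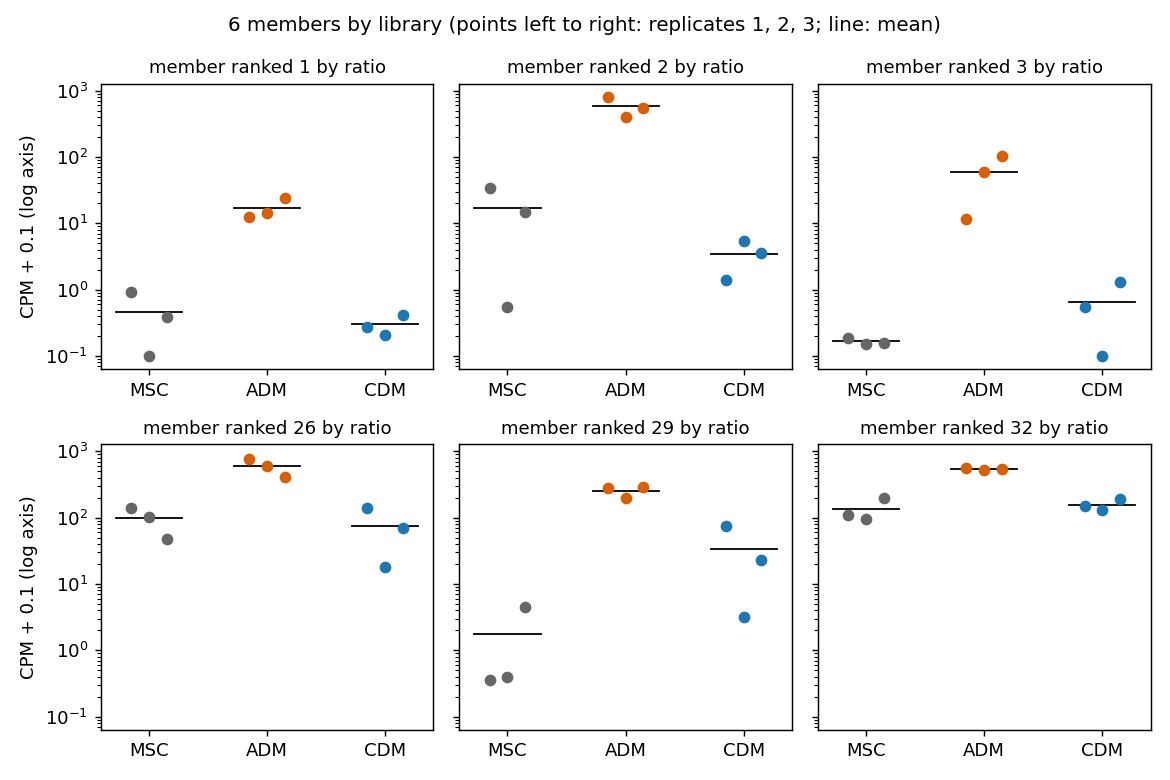
CPM + 0.1 on a log axis for the members ranked 1, 2, 3, 26, 29 and 32 by ratio, with 1 point per library (replicates 1, 2 and 3 from left to right) and a line at the group mean. All ADM points lie above the other points, the ADM points of the member ranked 3 spread over 9.11 times and those of the member ranked 32 over 1.08 times.

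Of the 10 members with the highest ratio (4.15 to 15.1) and the 10 with the highest ADM mean (77.7 to 598 CPM), 1 member was in both, the one ranked 2, an overlap from which nothing is read. The highest MSC or CDM library was between 0.809 and 34.5 CPM in the first 10 and between 15.9 and 201 CPM in the second. A ratio of at least 5 was reached by 8 members and of at least 3 by 25, while 17 lay under 2.5. The 2 members just inside the 2-fold limit had ratios of 2.01 and 2.02. The 2 genes just outside it, among those that met the other conditions, had 1.99 and 1.97. At the other limit, the 2 members with the lowest ADM minimum were at 5.17 and 5.68 CPM. Among the genes that met the other conditions, the nearest under 5 CPM were at 4.33 and 4.30 CPM, with ratios of 19.5 and 2.13. A gene as sharply separated as the member ranked 1 was thus left out by its low level.

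The ADM libraries were not equal for the members. ADM replicate 1 was the highest of the 3 in 29 members (52.7%), replicate 2 in 14 and replicate 3 in 12. Among all 9082 genes with at least 5 CPM in every ADM library, replicate 1 was the highest in 27.4%. The highest ADM library exceeded the lowest by under 1.5 times in 22 members (40%), against 72.9% of those 9082 genes, and by at least 3 times in 6 members. The median of this spread was 1.68 times over the members and 1.31 over the 9082 genes. The member ranked 33 is an example, at 391, 145 and 72.4 CPM in ADM replicates 1, 2 and 3, against 1.41 to 27.8 CPM in the other libraries. The member ranked 21 is the opposite case, at 310, 350 and 301 CPM in ADM, against 7.18 to 89.2 CPM elsewhere.

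The rule was also applied with each ADM library left out in turn. A gene chosen in this way that also meets the conditions in the library left out is 1 of the 55 members by construction, so only the number of genes chosen can vary. With ADM replicate 1 left out, 64 genes met the rule in the other 8 libraries, and 55 of them (85.9%) also met the 5 CPM and 2-fold conditions in the library left out. The numbers were 55 of 79 (69.6%) for ADM replicate 2 and 55 of 75 (73.3%) for ADM replicate 3. The library left out was above all MSC and CDM libraries in 62 of 64, 77 of 79 and 75 of 75 genes. These counts have no baseline, since the genes were chosen for low MSC and CDM values, and scaling used all 9 libraries.

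Every ADM library lay above all 6 other libraries in 882 genes (6.5% of all tested genes), and the 55 members are the part of these that met the limits on level and overlap. Genes of this kind were found mainly for ADM. With the other groups put in its place, the same rule gave 4 genes for MSC and 0 for CDM. Without CDM replicate 2 it gave 8 for MSC and 0 for CDM. In the opposite direction, 19 genes were at least 5 CPM in all 6 other libraries, with every ADM library at or below 1/2 of the lowest of these, and with MSC and CDM overlapping. The ADM libraries were also the most alike. Over 9823 genes with at least 5 CPM as the mean of the 3 group means, the median SD between libraries on the log2(CPM + 0.1) scale was 0.216 for ADM, 0.406 for MSC and 0.732 for CDM. Without CDM replicate 2 it was 0.353 for CDM, still above ADM at 0.217 and now below MSC at 0.407, over 9871 genes. The part of this spread in the count of 55 was not tested.

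The name "raised only in adipogenic cells" holds for the members as the rule defines it, but not for each of them in the plain sense. The CDM mean was above the MSC mean in 38 of 55 members (69.1%), against 52.4% of all tested genes and 53.0% of the 9082 genes. It was at least 2 times the MSC mean in 9 members (16.4%), against 13.4% of all tested genes and 9.52% of the 9082. That count is near the share of all tested genes, so nothing is read from it. Without CDM replicate 2 the CDM mean was above the MSC mean in 45 members, against 47.9% of tested genes, and at least 2 times the MSC mean in 10, against 5.33%. The members were chosen with this library included, and 10 of them met the overlap condition only with it. The tested genes were not chosen in this way, so they are no fair baseline for the 45. The largest gap between the CDM and MSC means was in the member ranked 29. It was at 284, 198 and 286 CPM in ADM, at 0.260, 0.292 and 4.39 CPM in MSC and at 73.7, 3.09 and 23.1 CPM in CDM. Its CDM mean was 20.2 times its MSC mean, and the 2 ranges met only because MSC replicate 3 lay above CDM replicate 2. DESeq2 called it higher in CDM than in MSC (adjusted p = 0.0192), the only such call among the members, where 0.7% of all genes were called in either direction. The edgeR adjusted p was 0.448. The member ranked 3 had the second largest gap, 8.38 times, on few reads.

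**Figure D4:**
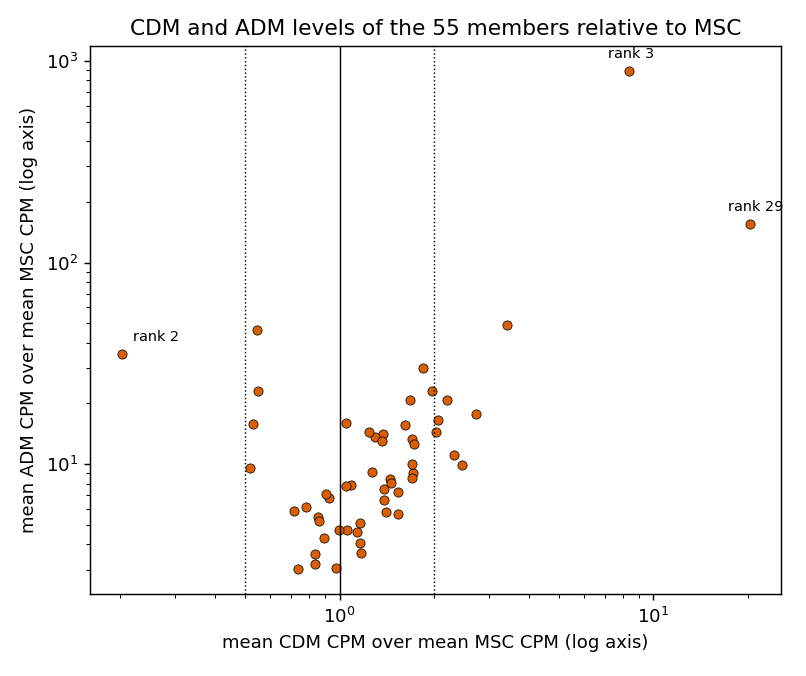
Each point is 1 of the 55 members, with the ratio of CDM to MSC group means on the horizontal axis and of ADM to MSC group means on the vertical axis, both log axes, a solid line at 1 and dotted lines at 0.5 and 2. The 38 members to the right of the solid line had a higher mean in CDM than in MSC, 9 lie at or beyond the line at 2, and the member ranked 2 lies alone left of the line at 0.5.

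The overlap of MSC and CDM often depended on 1 library. Without CDM replicate 2, 50 genes met the rule, of which 42 were among the 55. Of the 13 members lost, 10 then had both remaining CDM libraries above all MSC libraries, and 3 missed the level conditions. Without MSC replicate 3, 93 genes met the rule, of which 48 were among the 55, and the 7 members lost all failed the overlap. In all, 24 members met the rule whichever of the 9 libraries was left out, 25 failed in 1 of these 9 cases and 6 in 2 or more. Of the 24, 18 also met the rule with all libraries under both other scalings, DESeq2 size factors and library totals only. The members ranked 1 and 26 were among the 24.

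Among the 6 other libraries, MSC replicate 1 was the highest of the 6 in 14 members and CDM replicate 3 in 17, together 31 of 55 (56.4%), against 19.5% of the 9082 genes. CDM replicate 1 was the highest in 14, CDM replicate 2 in 5, MSC replicate 3 in 4 and MSC replicate 2 in 1. CDM replicate 3 was the lowest of the 6 in 0 members, against 9.88% of the 9082 genes. The rule bounded the highest of these values, so the shares are a description.

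The contrasts that the rule used gave the following calls. In the edgeR fit of all 9 libraries, 0 of 55 members passed an adjusted p of 0.05 against MSC, where 0.0147% of all tested genes were called higher in ADM. Against CDM 0 of 55 passed, where 0% of all genes were called. At an unadjusted p under 0.05 the counts were 55 of 55 against MSC (5.16% of all genes) and 54 of 55 against CDM (7.33% of all genes). DESeq2 called 52 members higher than MSC (2.07% of all genes) and 50 higher than CDM (2.75% of all genes), with 49 called in both contrasts and 2 in neither. The members were chosen on these contrasts, so nothing is read from these counts. Between CDM and MSC, 0 members passed in edgeR, where 0% of all genes did, and 2 had an unadjusted p under 0.05 (11.1% of all genes).

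The 2 genes that edgeR called higher in ADM than in MSC were not members. Without the overlap condition 62 genes met the rule (0.457% of all genes, against 0.405% for the whole rule), and both called genes were among the 7 added. In 4 of these 7 all CDM libraries lay above all MSC libraries, the 2 called genes included, and in 3 all CDM libraries lay below. Of the 55 members, 2 had consecutive ID numbers, those ranked 22 and 36. The first was at 65.3, 20.1 and 18.2 CPM in ADM and the second at 74.8, 44.5 and 44.8 CPM. Whether they are neighbours or share reads is not known.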

How the data were processed

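Polyadenylated RNA of 9 libraries was sequenced, with the group and replicate number taken from the sample titles. Each deposited file holds unnormalized read counts per gene. Per the submitters' processing notes, the tools were STAR 2.7.5c, HTSeq 1.99.2, FastQC 0.11.9 and DESeq2 3.16, with genome build equCab3. Which annotation release and strand setting were used is not given in the sources used here, so reads of overlapping or antisense genes may not be kept apart. The 5 summary lines per file, 24.4% to 36.4% of counted reads, were left out.

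In R 4.3.3 with edgeR 4.0.16, filterByExpr by the 3 groups kept 13571 genes, and libraries were scaled by TMM. The edgeR quasi-likelihood test was fitted to all 9 libraries (2-sided, Benjamini-Hochberg over all genes, threshold 0.05). DESeq2 1.42.0 was an alternative, with other scalings, filters, thresholds and libraries left out. Procedures were tested on simulated data with the same set spread for every gene and no library standing apart, unlike the data here. No pair of libraries within a group agreed within sampling noise (chi-square of 69.2 or more per degree of freedom). The members and lists were chosen with earlier results of these data known. By the rule for named genes, 2 IDs were printed, the highest by ratio and by ADM mean, and others were given by rank. Further members described, and the means, spreads and other-group counts without CDM replicate 2, were chosen after seeing the data. Marker lists could not be matched to IDs and were not used.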

Additional observations from a re-analysis of the deposited data

Results flagged for a closer look

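Shares of reads that the counting assigned to no single gene, which the comparisons do not use, exceeded the range of the 3 MSC libraries in some CDM libraries and in no ADM library. The highest MSC share of reads in no annotated feature was 22.14% of counted reads, and CDM replicate 2 had 24.43% and CDM replicate 3 had 23.28%. For ambiguous reads the MSC maximum was 1.741% and CDM replicate 2 had 4.469%. For multiply aligned reads the MSC maximum was 6.721% and CDM replicate 2 had 7.494%. These reads are outside the gene counts over which the share of member reads is taken. That share was low in CDM replicate 2 without scaling, at 0.0215%, and any link with these reads was not tested. After scaling, the summed level of the members was 411 CPM in CDM replicate 2, against 435 CPM in MSC replicate 2. The median over the members was then 2.32 CPM in CDM replicate 2, against 1.91 CPM in MSC replicate 2.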

How the results depend on the processing

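The number of genes meeting the rule was 51 with DESeq2 size factors, all of them members, 57 with library totals only, 46 of them members, and 55 with no filter on low counts. The 9 members lost with library totals all missed the level conditions. The number was 125 at 1.5 times and 25 at 3 times the highest other library, 83 with a floor of 1 CPM and 27 with a floor of 20 CPM. Leaving out 1 library gave 50 to 93 (93 without MSC replicate 3), and leaving out MSC replicate 3 and CDM replicate 2 gave 76, of which 35 were members. Members called higher in ADM than in MSC numbered 11 with no filter on low counts, 25 with only the 2 groups in the fit, 43 without MSC replicate 3 and CDM replicate 2, 52 in DESeq2, and 0 to 29 with 1 library left out, with 29 without CDM replicate 2, 5 without CDM replicate 1 and 0 without any other. For all genes these counts were 20, 102, 425, 277 and 0 to 97, against 2 with all libraries, and 1 with library totals only. Members called higher in ADM than in CDM numbered 3 without MSC replicate 3 and CDM replicate 2 and 50 in DESeq2, and for all genes 22 and 372. In the other fits both counts were 0. Between CDM and MSC, 1 member was called in DESeq2 and 0 in the other fits. The share of genes meeting the conditions in an ADM library left out was 75.7% over the 3 libraries, with the same 55 members counted in each by construction. It was 89.0% at 1.5 times and 51.8% at 3 times. Apart from the changed limits of the rule, the cause of these shifts was not tested. Depth limits the folds of members with a few reads outside ADM, such as those ranked 1 and 3.

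With the replicate number as a block, 0 members were called in any contrast, and 0 genes were called higher in ADM than in MSC or in CDM. Libraries with the same number did not deviate together from their group means: their correlations ran from -0.306 to 0.0121. Of the 9 libraries, 0 correlated best with one of their own number, so the numbers were not used to pair the samples. The highest correlations between groups were 0.369 for MSC replicate 1 with CDM replicate 3 and 0.255 for MSC replicate 3 with CDM replicate 1. Their cause was not tested, and the fits without the block treated all libraries as independent.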
